A study of Mus musculus with 2 samples.

Results

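The 10 genes described here store, import, export and sense iron in the mouse adrenal gland. They were chosen by gene symbol from a fixed list, and each of the 10 symbols matched 1 of the 55536 annotated genes. The adrenal RNA came from B6CASTF1/J males (C57BL/6J by CAST/EiJ hybrids) at 36 days of age, and was sequenced as total RNA from 300 ng per library with spike-in RNA added. The labels call the 2 libraries biological replicates of 1 group without treatment or genotype contrast, so the data give levels and the spread between these libraries and no effect of a condition. The labels disagree on the animals: the biosample entries name a different animal for each library and the library entries name the same one, so the spread may be technical.

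Cells keep iron in ferritin, a shell built of heavy (Fth1) and light (Ftl1) chains, and Ncoa4 delivers ferritin to the lysosome when iron is needed. Transferrin (Trf) carries iron in plasma, its receptor (Tfrc) brings it into cells, Slc11a2 moves it across membranes into the cytosol, and ferroportin (Slc40a1) lets it out. The proteins of Aco1 and Ireb2 bind a hairpin called the iron-responsive element when iron is scarce. A hairpin before the coding sequence then blocks translation, and hairpins after it protect the mRNA from decay. Hfe, a protein of the MHC class I type, takes part in the sensing of plasma iron. The adrenal cortex uses iron in its steroidogenic cytochromes and in the iron-sulfur protein ferredoxin.

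The element is shown first, because it ties the regulators to their target mRNAs and separates transcript forms described further on. The annotated transcripts were searched on their own strand for a C, 5 stem bases, the loop CAGTG with any base but G after it, and 5 bases that pair with the stem. This strict pattern stood in 4 of the 10 genes: Fth1, Ftl1, Slc40a1 and Tfrc. A looser pattern, with 1 unpaired stem position or 1 extra base in the second arm, also stood in Slc11a2. Trf, Ncoa4, Aco1, Ireb2 and Hfe held neither. An element with another loop would not be found by this search, so the numbers given are of matches. Of 58797 transcripts annotated as protein-coding, 0.725% held the strict pattern and 6.5% held either. Per gene, as the 10 are counted, the shares were 1.01% and 8.98% of 21901 genes. The sequences are those of GENCODE M21 transcripts on mm10. Each is printed 5′ to 3′ with the loop in capitals and the bulged C of the stem as its seventh base.
Fth1 (chr19:9982732-9982760, plus strand): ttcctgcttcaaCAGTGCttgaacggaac
Ftl1 (chr7:45459779-45459807, minus strand): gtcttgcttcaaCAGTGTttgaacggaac
Slc40a1 (chr1:45925465-45925493, minus strand): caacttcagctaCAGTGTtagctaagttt
Tfrc, element 1 (chr16:32631219-32631247, plus strand): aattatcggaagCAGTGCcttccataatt
Tfrc, element 2 (chr16:32631598-32631626, plus strand): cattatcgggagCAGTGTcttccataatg
Tfrc, element 3 (chr16:32631663-32631691, plus strand): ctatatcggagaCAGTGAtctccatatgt
Tfrc, element 4 (chr16:32631710-32631738, plus strand): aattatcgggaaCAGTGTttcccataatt
Slc11a2 (chr15:100395153-100395181, minus strand): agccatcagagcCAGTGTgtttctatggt

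The elements of Fth1 and Ftl1 differed at 1 of the 17 positions from the bulged C to the end of the upper stem. Those of Fth1, Ftl1 and Slc40a1 lay in the 5′ UTR, 115, 153 and 207 bases before the start codon. The 4 matches of Tfrc lay in its 3′ UTR, 891, 1270, 1335 and 1382 bases after the last coding base. The Slc11a2 match lay 40 bases after the last coding base of the transcript Slc11a2-205, with 4 of its 5 stem positions paired. Among the 4 Tfrc matches the 17 positions differed at 2 to 6 places.

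**Figure D1:**
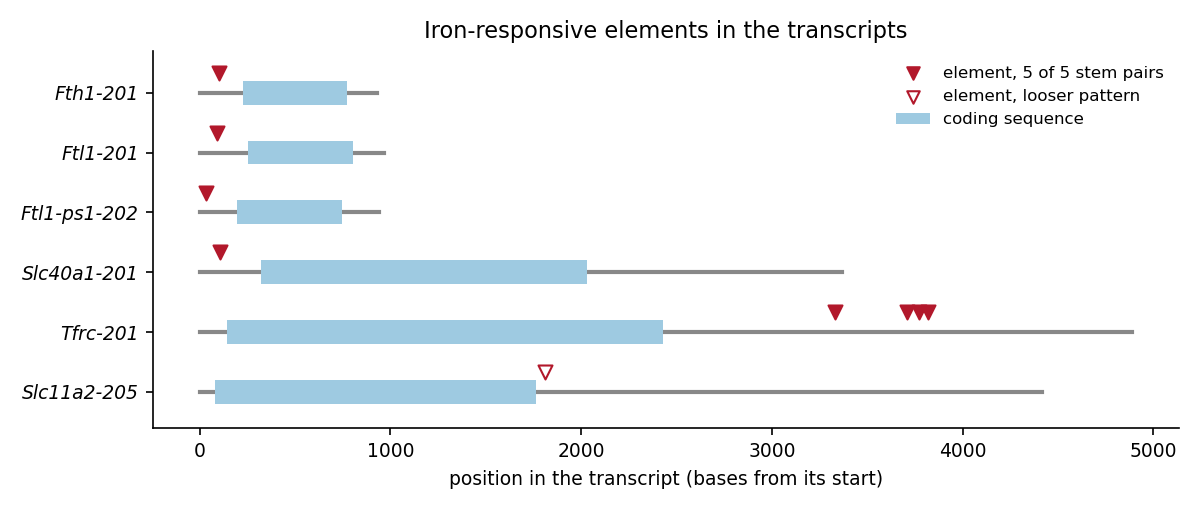
Position of each iron-responsive element match (triangles) along the transcript that holds it, in bases from the transcript start, with the coding sequence as a bar. Fth1, Ftl1, its copy Ftl1-ps1 and Slc40a1 hold 1 match before the coding sequence, and Tfrc holds 4 after it.

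Levels are given as TPM, an abundance per library that is corrected for length and so can be compared between genes. All 10 genes reached 1 TPM in both libraries. The TPM as deposited cover all RNA, and nuclear protein-coding genes took 31% of them in replicate 1 and 23.2% in replicate 2. Values rescaled to the same total over nuclear protein-coding genes in each library (rescaled TPM below) take out this difference. Ferritin led, and the exporter Slc40a1 was the lowest of the 10. In rescaled TPM the order of the means was Fth1, Ftl1, Trf, Ncoa4, Slc11a2, Aco1, Tfrc, Ireb2, Hfe and Slc40a1. Slc11a2 and Aco1 overlapped between libraries, and the other neighbours did not. The long forms Slc11a2-201 and Slc11a2-205 stood at 9.24 and 6.78 deposited TPM in replicate 1, against 33.6 for Aco1-201. In replicate 2 they stood at 5.67 and 6.97, against 25.4. The place of Slc11a2 above Aco1 thus rests on its short annotated transcripts. In the second transcript file Ncoa4 stood above Trf, with most of its TPM there on a short fragment, Ncoa4-203.

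**Figure D2:**
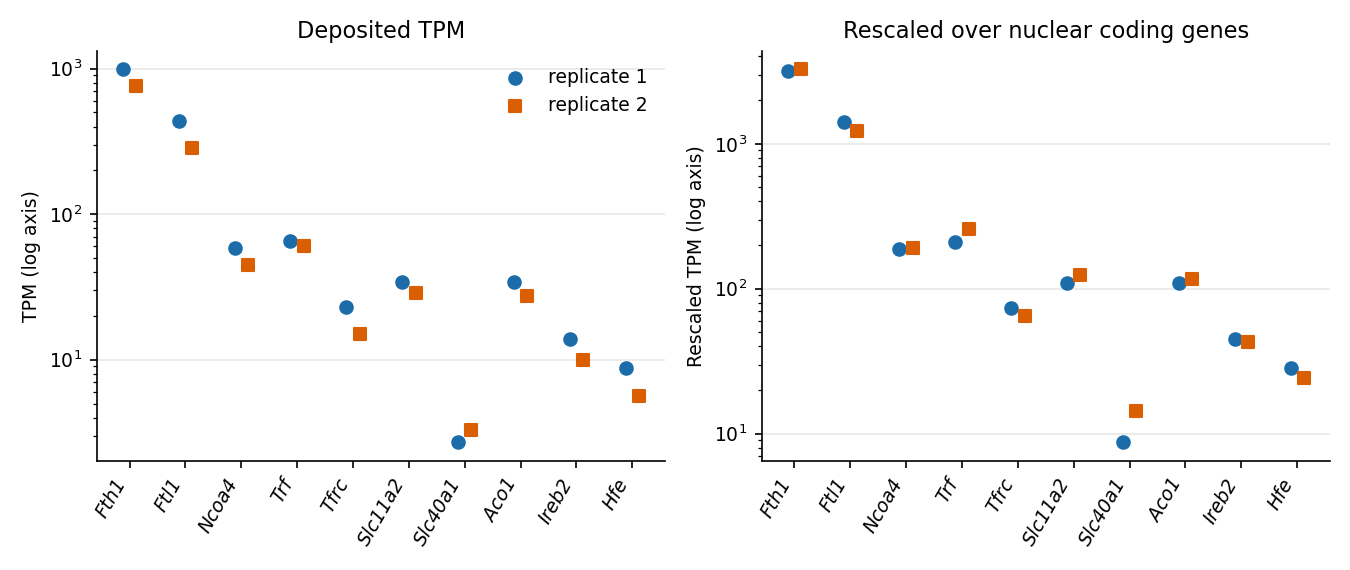
TPM of the 10 iron genes in replicate 1 (circles) and replicate 2 (squares) on log axes, as deposited (left) and rescaled over nuclear protein-coding genes (right). Fth1 stood at 3183 and 3259 rescaled TPM, and Slc40a1, the lowest, at 8.76 and 14.2.

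Among the storage genes, Fth1 (ENSMUSG00000024661.7, chromosome 19, 9980598 to 9985098, plus strand) was assigned 28895 and 24387 expected counts in replicates 1 and 2. That gave 988 and 757 deposited TPM (mean 873 ± 163, SD, n = 2) and 3183 and 3259 rescaled TPM. The rescaled values were close, and Fth1 ranked 14th and 17th of 22015 nuclear protein-coding genes. The transcript Fth1-201, which holds the element, took 97.9% and 98.4% of its counts. In the second transcript file Fth1-201 took 71.2% and 63.9%, but transcripts with the element together took 99.6% and 99.7%. Whichever file is used, almost all Fth1 RNA was assigned to forms with the element.

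Ftl1 (ENSMUSG00000050708.16, chromosome 7, 45457944 to 45459884, minus strand) received 13212 and 9492 expected counts in replicates 1 and 2, or 437 and 284 deposited TPM (mean 361 ± 108, SD, n = 2). In rescaled TPM it stood at 1409 and 1223. Forms with the element took 97.0% and 98.1% of its counts. Fth1 stood at 2.26 and 2.66 times the level of Ftl1 within replicates 1 and 2 (mean 2.46 ± 0.286, SD, n = 2). This ratio depends on how reads of a near-identical copy were assigned.

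That copy is Ftl1-ps1 (ENSMUSG00000062382.9, chromosome 13, 74399694 to 74407346, plus strand), a pseudogene by name that GENCODE M21 types as protein-coding. Its transcript Ftl1-ps1-202 matched Ftl1-201 at 906 of 910 aligned bases, and carried the same 17 element positions 153 bases before its start codon. It was assigned 11530 and 7974 expected counts in replicates 1 and 2, and 389 and 245 deposited TPM. The copy thus received 46.6% and 45.7% of the summed counts of the pair, and 42.4% and 41.3% in the second transcript file. In TPM the copy stood at 0.875 ± 0.0199 of Ftl1 (SD, n = 2), and at 1.38 ± 0.0333 of Ftl1 in the second transcript file, so which of the pair is higher depends on the file. In that second file 65.1% and 63.8% of the TPM of the copy in replicates 1 and 2 fell on Ftl1-ps1-201, a form of 491 bases without the element, which had 0 and 1.77 counts in the first file. The form with the element, Ftl1-ps1-202, stood there at 410 and 349 deposited TPM, below Ftl1-201 at 784 and 700.3. The authors' posterior SD of the Ftl1 count was 101 and 86.4, which covers the division of reads under their model alone. Of the 31-base words of Ftl1-201, 80.6% also occur in Ftl1-ps1, so reads that lie within those words fit either gene.

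Other ferritin copies held few reads. Ftl2-ps had 153 and 61.6 expected counts in replicates 1 and 2, against 14.6 and 4.71 in the second transcript file, and Fth-ps2 had 6 and 17, while 10 of the 14 ferritin copies and relatives, the Fthl17 family among them, had 0 counts in both libraries. With all annotated copies added to their parent gene, Fth1 stood at 1.18 and 1.42 times Ftl1 in replicates 1 and 2 (mean 1.3 ± 0.17, SD, n = 2). In the second transcript file the same sum, which takes in the short Ftl1-ps1-201, gave 0.934 and 1.10. Heavy chain RNA was thus above light chain RNA in both libraries of the first file, and on either side of it in the second once copies were added.

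**Figure D3:**
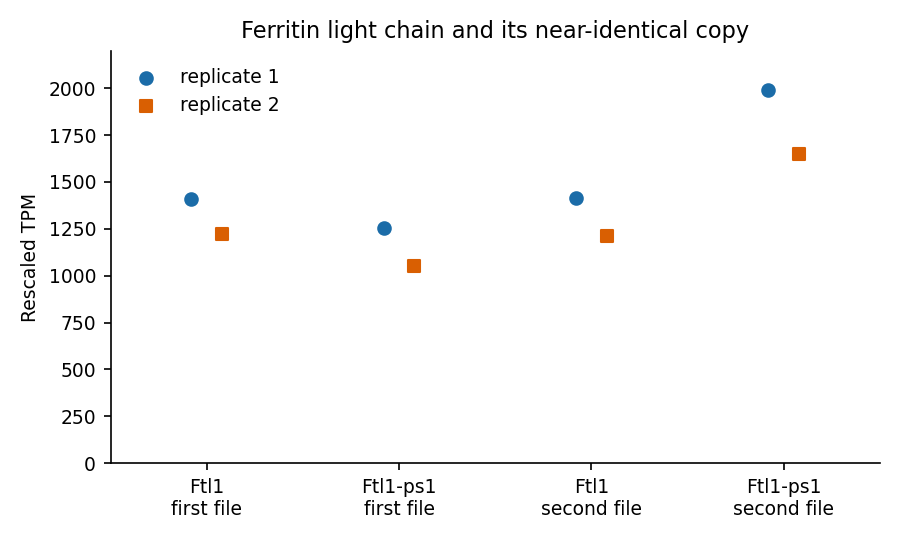
Rescaled TPM of Ftl1 and of its copy Ftl1-ps1 in the gene table (first file) and in the second transcript file, with replicate 1 as circles and replicate 2 as squares. The copy lies at 1253 and 1053 in the first file and at 1991 and 1649 in the second, below Ftl1 in the first and above it in the second.

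Ncoa4 (ENSMUSG00000056234.15, chromosome 14, 32159865 to 32179855, plus strand) was assigned 4698 and 3533 expected counts in replicates 1 and 2, or 58.6 and 44.6 deposited TPM and 189 and 192 rescaled TPM. The rescaled values differed little between the libraries. The transcript Ncoa4-201 took 77.9% and 77.0% of the counts, but 54.5% and 48.4% of the TPM; TPM divides by length, so short annotated fragments weigh more. Ncoa4-204, of 451 bases, took 28.6% and 34.8% of the TPM in the first transcript file and had 0 counts in the second. There another fragment, Ncoa4-203 of 462 bases, took 60.8% and 65.9% of the TPM on 7.19% and 8.88% of the counts. A processed pseudogene, Gm6768 on chromosome 12, shares 53.9% of the 31-base words of Ncoa4-201 and held 562 and 504 expected counts, 10.7% and 12.5% of the pair.

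Of the uptake genes, Trf (ENSMUSG00000032554.15, chromosome 9, 103204001 to 103230444, minus strand) was assigned 3489 and 3751 expected counts in replicates 1 and 2. It stood at 64.9 and 60.1 deposited TPM (mean 62.5 ± 3.44, SD, n = 2) and at 209 and 258 rescaled TPM. Replicate 2 was the higher library once rescaled. The transcript Trf-201 took 90.0% and 91.1% of the counts, and Trf-209, a retained-intron fragment of 433 bases, took 9.4% and 7.98% of the counts and 42.8% and 38.4% of the TPM. Gm20425, an overlapping annotated gene on the same strand that shares 80.7% of the 31-base words of Trf-201, held 537 and 540 counts, 13.3% and 12.6% of the pair.

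Tfrc (ENSMUSG00000022797.16, chromosome 16, 32608920 to 32632794, plus strand) was assigned 2911 and 2184 expected counts in replicates 1 and 2. It stood at 22.9 and 15.1 deposited TPM (mean 19.0 ± 5.48, SD, n = 2) and at 73.7 and 65.1 rescaled TPM. The full-length Tfrc-201, with the 4 matches to the element, took 85.1% and 91.2% of the counts. Tfrc-202, of 1860 bases and without a match, took 8.87% and 7.55%. Summed ferritin TPM (Fth1 and Ftl1) were 62.3 and 68.9 times those of Tfrc within replicates 1 and 2, and 80.1 and 80.2 times in the second transcript file. This sum leaves out Ftl1-ps1, at 389 and 245 deposited TPM, and at 1177 and 961.7 in the second file. With the copy added the ratios would be higher in both files.

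Slc11a2 (ENSMUSG00000023030.16, chromosome 15, 100387898 to 100425072, minus strand) received 2270 and 2088 expected counts in replicates 1 and 2, or 34.0 and 28.9 deposited TPM and 109 and 124 rescaled TPM. The gene is known to make forms with and without the element that differ at their 3′ ends. Here Slc11a2-205, with the element, had 1034 and 1168 counts in replicates 1 and 2, and Slc11a2-201, without it, had 955 and 644. Both forms were present in both libraries. In counts scaled for depth by TMM (explained with the ratios of all 10 genes), the log2 ratio of replicate 1 over replicate 2 was -0.40 for the form with the element (exact 95% interval for counting error -0.53 to -0.28) and 0.34 for the form without it (0.19 to 0.49), so the forms lay on opposite sides.

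The form with the element took 52.0% of the counts of this pair in replicate 1 (exact 95% binomial interval 49.8 to 54.2) and 64.5% in replicate 2 (62.2 to 66.7). The intervals, which cover counting error only, did not overlap. In the second transcript file the shares were 53.8% and 66.3%, so both ways of assigning reads gave the same order. Per length, the form with the element was 42.3% of the pair in replicate 1 and 55.1% in replicate 2. The short fragment Slc11a2-207 took 22.0% and 24.8% of the TPM in the first file and none in the second, where Slc11a2-208, of 387 bases, took 33.9% and 32.7%. Of the TPM of all 8 annotated transcripts, Slc11a2-205 took 20.0% and 24.1% (mean 22.0 ± 2.91, SD, n = 2), and 13.2% and 17.9% in the second transcript file. With 2 libraries, 1 on each side of the difference, it describes these libraries and has no replicate check.

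**Figure D4:**
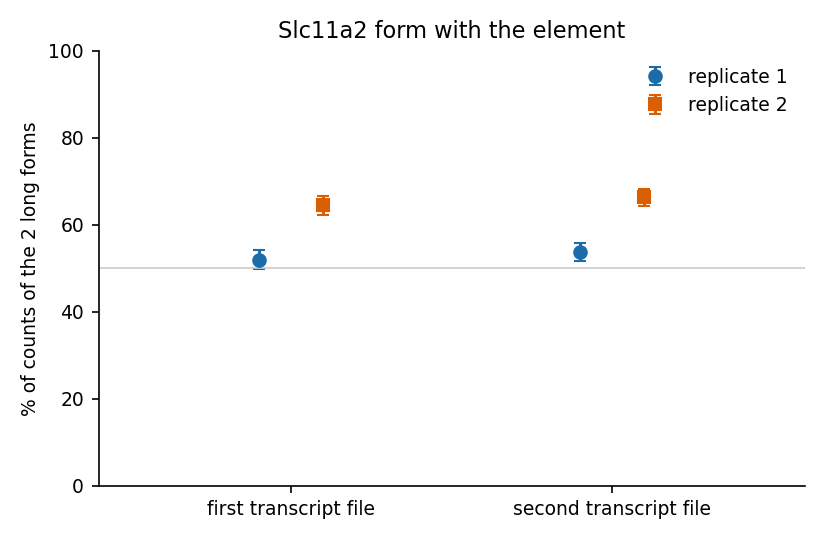
Share of the counts of the long forms Slc11a2-205 and Slc11a2-201 that fell on the form with the iron-responsive element, in percent, in replicate 1 (circles) and replicate 2 (squares) and in both transcript files. Bars are exact 95% binomial intervals for counting error, and they do not overlap between the libraries in either file.

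Export was represented by Slc40a1 (ENSMUSG00000025993.10, chromosome 1, 45908068 to 45926523, minus strand), with 278 and 352 expected counts in replicates 1 and 2. Its level was 2.72 and 3.31 deposited TPM (mean 3.02 ± 0.417, SD, n = 2) and 8.76 and 14.2 rescaled TPM, which placed it 9983rd and 9010th of the nuclear protein-coding genes. Replicate 2 was higher in both deposited and rescaled TPM. Within replicates 1 and 2, Slc40a1 stood at 0.0801 and 0.114 of Slc11a2, and at 0.0459 and 0.0788 in the second transcript file. The level of Slc11a2 in this ratio takes in its short fragments. Transcripts with retained introns held 11.1 and 56.6 of its counts, or 4.01% and 16.1%. Counts of its coding transcripts alone were 267 and 291, of which nearly all fell on Slc40a1-201, the form with the element.

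The regulators were expressed at lower levels than the storage genes. Aco1, whose protein is also the cytosolic aconitase (ENSMUSG00000028405.9, chromosome 4, 40143081 to 40198338, plus strand), was assigned 4436 and 3718 expected counts in replicates 1 and 2. It stood at 34.0 and 27.3 deposited TPM and 109 and 117 rescaled TPM. Ireb2 (ENSMUSG00000032293.8, chromosome 9, 54863789 to 54912530, plus strand) had 2775 and 2158 counts, or 14.0 and 9.94 deposited TPM and 44.99 and 42.77 rescaled TPM. Aco1 was the higher of the pair in both libraries, at 2.43 and 2.74 times Ireb2 (mean 2.59 ± 0.22, SD, n = 2). The second transcript file gave 2.91 and 3.15 times. Each was nearly all 1 coding transcript, with 99.8% and 98.9% of counts on Aco1-201 and 98.1% and 97.0% on Ireb2-201. In the second file Aco1-203, a noncoding form of 410 bases, took 12.9% and 9.81% of the Aco1 TPM on 0.484% and 0.367% of its counts. Aco1-201 stood there at 58.5 and 59.4 deposited TPM and Ireb2-201 at 22.1 and 20.5.

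Hfe (ENSMUSG00000006611.15, chromosome 13, 23702034 to 23710854, minus strand) was assigned 600 and 448 expected counts in replicates 1 and 2. It stood at 8.83 and 5.59 deposited TPM (mean 7.21 ± 2.29, SD, n = 2) and 28.4 and 24.1 rescaled TPM. Its counts were divided between Hfe-202, of 3572 bases, with 79.1% and 82.3%, and Hfe-203, of 816 bases, with 20.9% and 17.7%. Hfe-203 is short, so per length the forms were nearly even, with Hfe-203 at 56.2% and 51.1% of the TPM.

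None of the 10 iron genes was 2-fold apart between the libraries in counts scaled by TMM, a scaling that assumes most genes are equal, while 6.60% of 14779 genes with a mean CPM (counts scaled to library size) of at least 1 were (1.97% higher in replicate 1 and 4.63% higher in replicate 2). With a mean CPM of at least 5 it was 3.16% of 11092 genes, and again none of the 10. No test was made of these comparisons, which set 1 library against 1. The median log2 ratio of replicate 1 over replicate 2 was 0.08 for the 10 genes and 0.05 for all tested genes, and the median size of the ratio was 0.18 and 0.25. At 1.5-fold none of the 10 was apart either, against 16.9% of all tested genes. Slc40a1 came near, at 1.48-fold. Its log2 ratio was -0.61 with TMM over nuclear protein-coding genes, and -0.63 with TMM over genes that pass the CPM filter. Both values lie beyond 1.5-fold.

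Slc40a1 had the largest ratio of the 10, a log2 ratio of -0.57 (exact 95% interval for counting error -0.80 to -0.34), or 1.48-fold higher in replicate 2. Of all tested genes, 82.2% had a smaller one. For its coding transcripts alone the log2 ratio was -0.35 (-0.60 to -0.11). Trf followed at -0.33 (-0.40 to -0.27), then Ftl1 at 0.25 (0.21 to 0.29), or 0.27 with Ftl1-ps1 added. Tfrc, Hfe, Ncoa4 and Ireb2 lay between 0.13 and 0.19, Slc11a2 at -0.11, Aco1 at 0.03 and Fth1, the most abundant, at 0.02 (-0.01 to 0.04). With 7 ratios above 0 and 3 below, the genes shared no direction, and with TMM over nuclear protein-coding genes 5 lay on each side.

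Scaled by spike-in counts instead, all 10 log2 ratios were above 0, between 0.27 and 1.08, and 4 genes (Ftl1, Ncoa4, Tfrc and Hfe) were at least 2-fold higher in replicate 1. The median of all tested genes was then 0.89 and 37.5% were 2-fold apart. The 4 genes thus lie close to the shift of all genes.

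**Figure D5:**
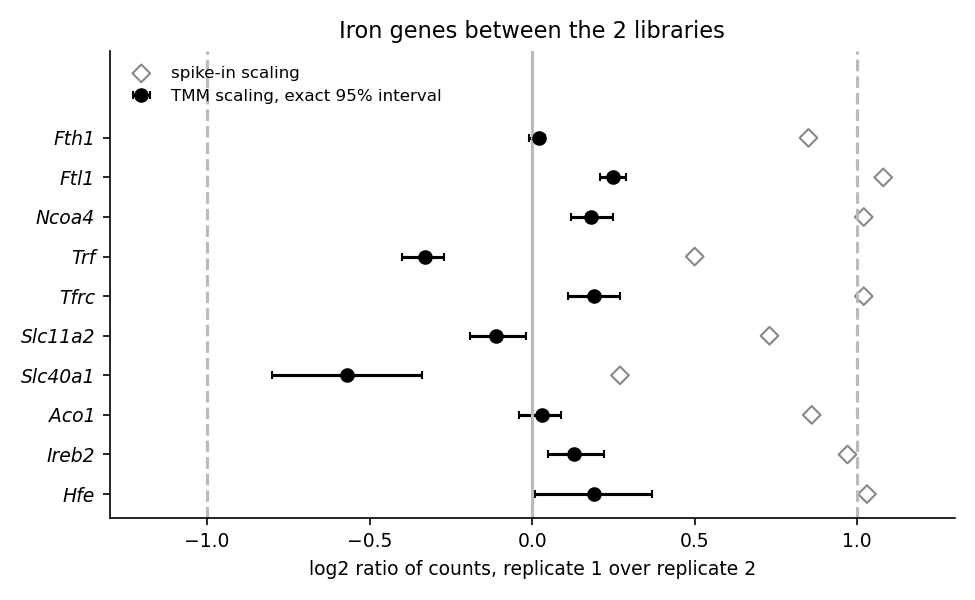
Log2 ratio of counts in replicate 1 over replicate 2 for the 10 iron genes with TMM scaling (points, bars are exact 95% intervals for counting error) and with spike-in scaling (diamonds). Dashed lines mark 2-fold. No gene passes them with TMM scaling, and Ftl1, Ncoa4, Tfrc and Hfe pass with spike-in scaling.

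RNA of other cell types differed between the libraries and is given beside these ratios, as summed rescaled TPM in replicates 1 and 2. In bulk tissue, fewer cells of a type and less RNA per cell cannot be told apart. Adrenal identity was clear in both, with 47100 and 35000 for 6 cortex genes and 4650 and 7280 for 6 chromaffin cell genes. All 6 cortex genes were higher in replicate 1 and all 6 chromaffin cell genes in replicate 2, in rescaled TPM and in TMM-scaled counts. Hepatocyte markers, of a cell type that is a known source of transferrin, summed to 49.3 and 589, and all 7 were at least 2-fold higher in replicate 2 in TMM-scaled counts. Trf was 1.26-fold higher there on the same scale. Albumin, the most abundant of the 7, stood at 23.3 and 221 rescaled TPM. Erythroid markers, of cells known for high Tfrc, summed to 10200 and 5850, with 6 of 7 higher in replicate 1 in rescaled TPM and 7 of 7 in TMM-scaled counts. Macrophage markers, of a cell type known for Slc40a1, summed to 314 and 263, with 8 of 9 higher in replicate 1, the opposite side to Slc40a1. Glial markers summed to 34.8 and 39.1, endothelial markers to 582 and 609 and adipocyte markers to 3240 and 4220. The genes of these lists went both ways. Higher in replicate 1 were 2 of 6 glial, 3 of 5 endothelial and 3 of 6 adipocyte genes in rescaled TPM. In TMM-scaled counts it was 4, 4 and 3. Pancreatic acinar markers summed to 0.773 and 31200, with Pnlip and Cpa1 at 0 counts in replicate 1. The part of these cells in the ratios was not tested.

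The other genes of the pathway were taken from lists of 77 genes, of which 53 reached 1 TPM in both libraries. Of 57 with enough counts, 4 (7.02%) were 2-fold apart, close to the 6.60% of all genes. Erfe, a hormone that erythroid precursors are known to release, stood at 41.1 and 20.2 rescaled TPM in replicates 1 and 2, 2.21-fold higher in replicate 1 (log2 ratio 1.15, 0.99 to 1.31), the library with the higher erythroid marker sum. Ftl2-ps was 2.1-fold higher in replicate 1. Tfr2, a second transferrin receptor, held 28 and 79 counts, 3.27-fold higher in replicate 2 (log2 ratio -1.71, -2.40 to -1.09). Tmprss6, a protease that restrains hepcidin, showed 22 and 84 counts, 4.4-fold higher in replicate 2. Tfr2 and Tmprss6 are known from liver, and the hepatocyte markers above lay on the same side. Their part was not tested. Hepcidin itself, Hamp, was chosen after its values were seen, with 0 and 10.4 expected counts. Its copy Hamp2 had 0 and 7.64, and the reads of the pair may be shared.

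Uptake genes outside the 10 were led by Snx3, which recycles the transferrin receptor, at 232 ± 29.3 in rescaled TPM. Every level here and in the paragraphs after it is a mean with its SD over the 2 libraries. Lrp1, an endocytic receptor that takes up heme bound to hemopexin, was at 185 ± 2.06, Steap2, a metalloreductase, at 53.3 ± 2.93 and Slc22a17, a receptor of lipocalin, at 37.1 ± 0.798. Of the 10 tested genes of this list Tfr2 alone was 2-fold apart. All 6 genes of the oxidation and export list were tested and none was 2-fold apart. The ferroxidase ceruloplasmin, Cp, stood at 58.7 ± 3.20, the heme transporters Slc46a1 and Flvcr1 at 32.02 ± 1.46 and 16.9 ± 0.913, and Mon1a at 16.0 ± 1.66. Each of these stood above Slc40a1, at 11.5 ± 3.88, in both libraries. For Mon1a the margin in replicate 2 was narrow, 14.85 against 14.24. In the second transcript file Mon1a was at 13.0 ± 1.25 and Slc40a1 at 9.52 ± 3.94. Slc40a1 stood there at 6.73 in replicate 1 and 12.3 in replicate 2, within the SD of Mon1a, so their order in replicate 2 is not firm.

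In the systemic sensing list, Id1, a target of BMP signalling, was at 83.1 ± 26.4, Neo1, a hemojuvelin receptor, at 67.6 ± 13.2 and Smad7, an inhibitor of that signalling, at 20.5 ± 2.23. None of the 8 genes of the cytosolic iron handling list was 2-fold apart, and their log2 ratios lay between 0.01 (Fbxl5) and 0.41 (Skp1a), with a median of 0.20. The poly(rC)-binding proteins that hand iron to ferritin were at 663 ± 56.9 (Pcbp2) and 325 ± 40.7 (Pcbp1), Skp1a, a ubiquitin ligase subunit, at 474 ± 66.1 and the glutaredoxin Glrx3 at 109 ± 4.12. For iron-sulfur cluster assembly, the chaperone Hspa9 was at 754 ± 85.7, the scaffold Iscu at 579 ± 23.6, Bola3 at 186 ± 19.3 and Glrx5 at 150 ± 6.00. None of the 16 tested genes of that list was 2-fold apart, and 9 lay above and 7 below 0.

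Of the 7 other mRNAs with a described iron-responsive element none was 2-fold apart. App, the amyloid precursor protein, stood at 328 ± 19.1 in rescaled TPM, Epas1, a hypoxia-inducible transcription factor, at 187 ± 13.1 and Cdc42bpa at 59.8 ± 2.16.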

How the data were processed

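For each library, 1 gene-level file and 2 transcript-level files were used, built on mm10 with GENCODE M21 per the labels. The gene-level file and the first transcript file hold expected counts and TPM as the authors deposited them, laid out as RSEM writes them. In the other transcript file, the authors deposited estimated counts and TPM in the layout kallisto writes; it is called the second transcript file. The aligner and quantifier were not given in the sources used here. A posterior SD of each count, also deposited by the authors, was read from the first kind. As mm10 is the C57BL/6J genome, reads of the CAST/EiJ allele may map less well, and this was not measured.

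Expected counts totalled 35813366 in replicate 1 and 30628771 in replicate 2, of which spike-ins took 0.843% and 1.5%. Rows for spike-ins and phiX, and rows whose ID is a bare number, are no genes of the annotation and did not enter the ratios. Counts were rounded and scaled by TMM over all genes (edgeR 4.0.16, R 4.3.3, factors 0.9975 and 1.003), with a pseudocount of 0.5 for log2 ratios. Genes entered at a mean CPM of 1 or more, and a ratio of at least 2-fold was counted. No p-value was computed, since 1 library stands against 1. Intervals are exact 95% limits and cover counting error only, as PCR copies of a molecule cannot be told from separate molecules here. The ratio step and the element search were tested on simulated data. Python 3.11.15, numpy 2.4.6, pandas 2.3.3, scipy 1.17.1, Biopython 1.88 and matplotlib 3.10.9 were used.

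The genes and lists were chosen with earlier results of these data known. The rule for named genes takes the 10 genes, of each other list up to 4 genes by mean TPM and any that were 2-fold apart, ferritin copies with at least 10 counts in either library, up to 3 genes of each marker list, and transcripts with at least 5% of their gene's TPM in both libraries. A gene that the rule takes is not reported here. Alternatives were total, spike-in and DESeq2 1.42.0 scaling, TMM over gene subsets, other filters, pseudocount and fold, the second transcript file, rescaled TPM, added ferritin copies and each replicate left out. Chosen after seeing the data were TMM over the genes that pass the CPM filter, the looser element pattern, the long Slc11a2 forms as denominator, and the search for genes that share 31-base words.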

Additional observations from a re-analysis of the deposited data

How the results depend on the processing

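The 10 genes stayed at 1 TPM or more in every setting run. The count of genes 2-fold apart, 0 of 10, was 4 with spike-in scaling and 0 in the other settings. Of the other iron genes 4 of 57 tested were 2-fold apart, where 6.6% of all tested genes were. With spike-in scaling 29 of 57 were, against 37.5% of all genes, and with no filter 8 of 66, against 28.9%. With a mean CPM of at least 5 it was 1 of 50, against 3.16%, and at 1.5-fold 9 of 57, against 16.9%. The filters change which genes enter, and spike-in scaling shifts all genes. In the second transcript file the ratio of ferritin to Tfrc was 80.2, against 65.6, and of Aco1 to Ireb2 3.03, against 2.59. That of Slc40a1 to Slc11a2 was 0.0623, against 0.0973. The Slc11a2 share of TPM with the element was 15.6% there, against 22.0%, while its share of counts was 51.7%, against 50.7%. The cause of these differences was not tested. Among the long Slc11a2 forms alone the share of TPM with the element was 48.7% in the first file. With ferritin copies added Fth1 stood at 1.3 times Ftl1, against 2.46. The ratio of ferritin to Tfrc was taken without the copies in every setting. With 1 replicate left out, the ratio of Fth1 to Ftl1 was 2.26 to 2.66, of ferritin to Tfrc 62.3 to 68.9, of Aco1 to Ireb2 2.43 to 2.74, of Slc40a1 to Slc11a2 0.0801 to 0.114, and the Slc11a2 share 20.0 to 24.1%. Ratios between libraries need both, so none was left out there. No paired analysis was possible because there is 1 group. Genome-wide, 2-fold calls were 291 higher in replicate 1 and 685 in replicate 2, against 5322 and 207 with spike-in scaling and 190 and 161 with a mean CPM of at least 5. At 278 and 352 counts, Slc40a1 is the member with the widest counting error.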
